A study of Mus musculus with 24 samples.

Results

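Nucleolus-associated domains (NADs) at the telomere-proximal end of mouse autosomes are described here in stem cells of the embryo (ESCs) and neural progenitors (NPCs). A NAD was taken as a member when its midpoint lay beyond 80% of the length of its chromosome, on chromosomes 1 to 11, 13, 14, 15 and 17. Mouse chromosomes are acrocentric and counted from the centromere, so the last 20% of the length is the end next to the long-arm telomere, here called the distal segment. By this rule 259 of 1769 ESC NADs and 197 of 1447 NPC NADs were members, 456 of 3216 in all. Another 1194 ESC NADs and 970 NPC NADs lay in the first 80% of the same 15 chromosomes, here called the rest. The 15 distal segments were between 18.9975 and 39.1 Mb long and held 418 Mb of the 2092 Mb of these chromosomes.

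The nucleolus forms around active rRNA genes, and chromatin at its rim is mostly compact, late replicating and poor in transcribed genes. Mouse centromeres gather near nucleoli, whereas the distal ends of the long arms carry telomeres and, on many chromosomes, stretches of gene-rich and GC-rich DNA. Clusters of olfactory receptor, vomeronasal receptor and zinc finger genes are typical residents of nucleolar and lamina-bound chromatin.

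Nucleolar-DamID marks DNA at the nucleolus with a bacterial Dam methylase, which methylates adenine in GATC, fused to histone H2B and a nucleolar localization sequence (H2B-Dam-NoLS). The fusion without that sequence (H2B-Dam) served as control. Each cell type had 2 H2B-Dam-NoLS and 2 H2B-Dam samples, and 3 ESC and 3 NPC samples were measured by RNAseq. ESCs were of the E14 line, grown without feeder cells in 2i medium with LIF. NPCs were made from E14 ESCs as embryoid bodies and taken at day 8 of differentiation, the final 4 days of it with retinoic acid at 2 µM. Each Dam fusion sat at *Rosa26* behind a minimal *hsp* promoter with Tet operators, carried a destabilization domain, and was expressed in ESC lines isolated after CRISPR knock-in. H2B-Dam and H2B-Dam-NoLS cells alike were induced for 15 h with doxycycline (100 ng/ml) together with Shield1 (1 µM). RNA of each cell type came from separate culture dishes according to the labels, so p-values from RNAseq measure the spread between dishes of the same line. Cell type and batch of preparation cannot be told apart.

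Each cell type has 1 NAD list with 1 score per NAD, which summarizes both experiments, so no NAD value below has a replicate error. The score derives from the log2 ratio of methylation to that of the control, but how that ratio was turned into a score per NAD is not stated, and the lists were normalized separately, so scores were tested within a list only. Comparisons of regions used the chromosome as its own control, with a two-sided exact permutation test that swaps the sign of the difference on each of the 15 chromosomes. All chromosomes come from the same libraries, so these p-values measure the spread between chromosomes and not between experiments, and they were adjusted over the 20 comparisons made. Errors after ± are SDs over chromosomes.

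Chromosome 8 stood apart in NPCs and ESC replicate 3 stood apart in RNAseq. NPC NADs held 83.2% of the first 80% of chromosome 8, against 18.9% to 37.6% on the other chromosomes, while ESC NADs held 21.7% of it. Main values that rest on chromosome 8 are therefore given with and without it, except for coverage in windows along the chromosome and at its tip. In RNAseq, log2 values of ESC replicate 3 correlated across genes with those of ESC replicates 1 and 2 at Pearson r of 0.963 and 0.966, against 0.999 between those replicates and at least 0.996 among NPC samples (genes are not independent replicates). RPKM of ESC replicate 3 summed to 139360, against 103590 and 105390 in the other ESC samples and 84853 to 86103 in NPC samples. Where a call printed for a gene changed without ESC replicate 3, it is also given without that sample.

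NADs were sparser in the distal segment than in the rest of the chromosome in both cell types. In ESCs, NADs held 21.7% ± 12.3 of the distal segment and 32.9% ± 5.88 of the rest (n = 15 chromosomes). The distal segment was lower on 11 of 15 chromosomes, by a mean of -11.2 percentage points (permutation p = 0.00836, adjusted p = 0.0186). In NPCs the shares were 16.8% ± 14.5 and 31.5% ± 15.2, and the distal segment was lower on 13 of 15 chromosomes, by a mean of -14.7 points (permutation p = 0.000488, adjusted p = 0.00275). Without chromosome 8 the mean differences were -11.2 points in ESCs and -13.8 points in NPCs. Among ESC NADs at or above the median score of the list, the difference was -3.08 points and did not pass (adjusted p = 0.337).

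From the centromere outwards, ESC NADs held 32.8%, 34.0%, 32.8%, 32.1% and 21.7% of successive windows of 20% of the length. NPC NADs held 35.0%, 32.9%, 27.3%, 30.8% and 16.8%. Chromosome 8 is included and was the highest in NPCs in each of these windows, with 66.9%, 91.5%, 90.9%, 83.4% and 55.2%. Without it NPC NADs held 14.1% of the last window and 27.8% of the rest. In finer windows of 5% of the length, ESC coverage was 20.7% in the window next to the centromere, which includes at least 3 Mb of undetermined bases, and it was already 23.1% ± 12.9 between 75% and 80%, and then 21.4%, 23.7%, 19.9% and 21.9% out to the end. The same 4 windows in NPCs held 21.2%, 19.03%, 8.79% and 18.1%, so the NPC minimum lay at 90% to 95% of the length, where 3 of 15 chromosomes had no NAD at all.

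Coverage of the distal segment varied several-fold between chromosomes, and largely the same chromosomes were high in both cell types. In ESCs it was highest on chromosome 17 with 42.6%, followed by chromosome 13 with 39.3%, chromosome 10 with 35.6%, chromosome 3 with 34.9%, chromosome 14 with 32.7% and chromosome 1 with 28.4%. The other 9 chromosomes lay between 9.60% on chromosome 2 and 18.7% on chromosome 6. NPC coverage on chromosomes 13, 3, 17, 10 and 14 was 31.9%, 27.2%, 25.3%, 25.01% and 23.6%. Chromosome 8 stood above all of these in NPCs with 55.2%, and the remaining 9 lay between 3.51% on chromosome 4 and 13.3% on chromosome 1. On chromosomes 13, 14 and 17 the distal segment of ESCs was denser in NADs than the rest, by 7.17, 2.70 and 13.96 points, as it was by 1.53 points on chromosome 3. In NPCs this held for chromosomes 14 and 17, by 1.79 and 4.35 points.

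On average over chromosomes, NADs gathered again at the chromosome tip. Of the last 1 Mb before the undetermined bases at the end of the assembly, ESC NADs held 48.4% ± 34.0 and NPC NADs 37.0% ± 33.0 (n = 15). Of the last 2 Mb they held 38.9% and 34.4%, of the last 5 Mb 25.6% and 20.9%, and of the last 10 Mb 20.6% and 14.8%. No NAD fell in the last 1 Mb on 2 chromosomes in ESCs and on 4 in NPCs. These windows are given as a description, with no test. Chromosome 8 is included, and its last NPC NAD filled nearly all of the last 1 Mb and 2 Mb (99.90% and 99.95%). The means were not computed without it, so how far the NPC values at the tip rest on chromosome 8 is not shown. The assembly ends in 100 to 150 kb of undetermined bases on these chromosomes, where no NAD can be mapped.

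Distal NADs were mostly short. In ESCs their length ranged from 71.2 kb to 2299.9 kb with a median of 199.7 kb, and in NPCs from 97.4 kb to 2.50 Mb with a median of 199.8 kb. The NADs were mapped at a resolution of 100 kb, and 115 of 259 ESC members (44.4%) and 91 of 197 NPC members (46.2%) spanned a single step of that size. Only 16 ESC and 14 NPC members were 1 Mb or longer, which held 23.0 of 88.4 Mb and 21.1 of 67.1 Mb of member sequence. Per chromosome, median length in ESCs was 197 kb in the distal segment and 257 kb in the rest, a difference of -60.2 kb that did not pass after adjustment (permutation p = 0.0474, adjusted p = 0.0677). In NPCs the medians were 206 and 226 kb (adjusted p = 0.517).

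Scores of distal NADs were somewhat higher than those of other NADs. Scores of ESC members ran from 0.0130 to 0.141 with a median of 0.0276, and scores of NPC members from 0.0171 to 0.233 with a median of 0.0435. Averaged over chromosomes, the median ESC score was 0.0315 ± 0.00664 in the distal segment and 0.0254 ± 0.00238 in the rest, higher distally on 12 of 15 chromosomes (adjusted p = 0.0101). In NPCs it was 0.0493 ± 0.0114 against 0.0426 ± 0.00720, higher on 10 of 15 chromosomes (adjusted p = 0.0382). Both differences missed the threshold when the mean weighted by NAD length replaced the median (adjusted p = 0.0559 in ESCs and 0.0703 in NPCs). They also missed it when the last 10% of the length replaced the last 20% (adjusted p = 0.132 and 0.523). Among NADs at or above the median score the differences were 0.000686 in ESCs and 0.00411 in NPCs, and neither passed (adjusted p = 0.767 and 0.319).

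At the border of the definition, the ESC NAD nearest to 80% from inside was chr6:119600309-120001004, which spans *Erc1*, *Rad52* and *Wnk1*, with its midpoint at 80.0% of the length and a score of 0.0825. The nearest from outside was chr13:95600562-96899516, over *F2r* and *Iqgap2*, at 79.9% with a score of 0.0381. In NPCs the nearest inside was chr7:116300727-116501709, over *Plekha7*, *Rps13* and *Pik3c2a*, at 80.0% with a score of 0.0610. The nearest outside was chr10:104300147-104700649, which holds no protein-coding gene, at 80.0% (79.96%) with a score of 0.0339. All coordinates are on mm10 (GRCm38) and 1-based.

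The share of ESC NAD bases that were also NAD in NPCs was lower in the distal segment, where NPC NADs were sparser too. On average 41.6% ± 16.2 of the ESC NAD bases of the distal segment lay in NPC NADs, against 57.7% ± 13.5 in the rest. NPC NADs covered 16.8% and 31.5% of these regions as a whole, so a lower distal share would also arise from sparser NPC NADs alone, and the test does not speak to how well distal NADs were kept. The distal share was lower on 14 of 15 chromosomes, by a mean of -16.1 points (permutation p = 0.000549, adjusted p = 0.00275), and higher on chromosome 9, with 65.5% against 54.3%. With NADs at or above the median score the difference was -14.6 points, with an adjusted p of 0.0725. For NPC NAD bases also in ESC NADs, the shares were 66.3% ± 19.8 and 63.9% ± 13.1 (adjusted p = 0.517).

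In absolute terms, 38.6 Mb of the distal segments were NAD in both cell types, 49.8 Mb in ESCs only, 28.7 Mb in NPCs only and 301 Mb in neither. Shared bases made up 43.7% of the ESC and 57.3% of the NPC total. Chromosome 8 alone gave 12.3 Mb of the NPC-only bases, and without it 36.6 Mb were NAD in both, 49.1 Mb in ESCs only and 16.4 Mb in NPCs only, so that shared bases were 42.7% of the ESC and 69.0% of the NPC total. No base in an NPC NAD was found for 108 of 259 ESC members (41.7%), against 349 of 1194 ESC NADs in the rest (29.2%). Conversely, 48 of 197 NPC members (24.4%) lacked any base in an ESC NAD, against 211 of 970 in the rest (21.8%). Of these 48 NPC members 20 lay on chromosome 8, and without it the counts were 28 of 170 (16.5%) and 163 of 897 in the rest (18.2%). Members without overlap were shorter, with a median of 100.4 kb against 300.0 kb for overlapping members in ESCs and 100.1 against 200.8 kb in NPCs. Exactly the same start and end occurred in both lists for 21 members.

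Coverage of the distal segment was lower in NPCs than in ESCs on every chromosome but chromosome 8. Across the 14 other chromosomes NPC coverage was 14.1% ± 10.3 and ESC coverage 22.5% ± 12.4. NPC coverage was lower on 14 of 14, by a mean of -8.48 points (permutation p = 0.000122, the smallest p that 14 chromosomes allow, adjusted p = 0.000814). Chromosome 8 was left out for its high NPC coverage, so this count and p-value were shaped by that choice and support no conclusion. On chromosome 8 it was 55.2% against 10.4%, a difference of 44.8 points. With chromosome 8 included, the mean difference was -4.93 points and did not pass (permutation p = 0.208, adjusted p = 0.260). The loss was not shown to be larger in the distal segment: NPC minus ESC coverage was -4.93 points in the distal segment and -1.42 points in the rest, a difference of -3.51 points (permutation p = 0.0363, adjusted p = 0.0559). Without chromosome 8 these values were -8.48, -5.91 and -2.57 points (adjusted p = 0.0968).

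The distal segment of chromosome 8 thus held a large part of the NPC members. It had 27 of 197 NPC members and 14.003 of 67.1 Mb (20.9%), but 10 of 259 ESC members and 2.69 of 88.4 Mb (3.05%). Its NPC scores ran from 0.0384 to 0.233 with a median of 0.0686, against 0.0171 to 0.137 and a median of 0.0409 on the other 14 chromosomes. Its ESC scores, with a median of 0.0340, lay within the range of the others. The distal segment of chromosome 8 was nevertheless sparser in NPC NADs than the rest of that chromosome, by -28.0 points. What sets chromosome 8 apart in the NPC list was not tested. The list alone does not show whether it is nucleolar contact or a property of the NPC libraries or cell lines, and this doubt applies to every NPC NAD and score of chromosome 8 below.

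Distal NADs were poorer in G and C than the sequence around them. In ESCs, GC content was 40.9% ± 1.34 in the NADs of the distal segment and 44.5% ± 2.56 outside them, lower inside on 15 of 15 chromosomes by -3.57 points. In NPCs it was 40.5% ± 1.67 against 44.4% ± 2.66, again lower on 15 of 15, by -3.88 points. Both p-values were 6.1e-05, the smallest that 15 chromosomes allow (adjusted p = 0.00061). Distal NADs were still richer in G and C than NADs of the rest, which had 39.7% in ESCs and 39.2% in NPCs, by 1.23 points in ESCs (12 of 15 chromosomes, adjusted p = 0.0153) and by 1.36 points in NPCs (13 of 15, adjusted p = 0.0101). Pooled over chromosomes, distal bases in NADs of both cell types had 39.6% GC, those in ESC NADs only 41.0%, those in NPC NADs only 41.7%, and those in neither 45.1%. Repeat-masked bases made up 35.5%, 32.2%, 33.3% and 28.7% of these classes. The NPC-only value rests on chromosome 8, where it was 44.6% GC, against 39.6% on the other chromosomes, where bases in NADs of both cell types had 39.5%.

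Dam can only methylate GATC, so its density was compared too. Distal ESC NADs had 2.47 GATC per kb and the distal sequence outside them 2.45 (adjusted p = 0.384). In NPCs the densities were 2.50 and 2.45 per kb, a difference of 0.0529 that did not pass (permutation p = 0.0306, adjusted p = 0.0510). In the last 10% of the length the NADs were denser in GATC by 0.0928 per kb in ESCs and by 0.139 per kb in NPCs (adjusted p = 0.0209 and 0.0144).

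Every one of the 518 borders of ESC members and the 394 borders of NPC members fell exactly in the middle of a GATC, between GA and TC, where DpnI cuts methylated DNA. This follows from the processing, which assigns reads to GATC fragments, and is no finding on the NADs. Borders of 2 members are shown as examples, 60 bases each on the plus strand of mm10, with GATC in capitals. The ESC member of highest score, chr9:107799256-107900810, starts in an intron of *Rbm6* (chr9:107799226-107799285) and ends in an intron of *Mon1a* (chr9:107900781-107900840). The NPC member of highest score, chr8:122899903-123100036, starts in introns of *Ankrd11*, of the overlapping gene *Gm20388* and of the antisense gene *Gm45894* (chr8:122899873-122899932), and ends in an intron of *Gm20388* (chr8:123100007-123100066).
*Rbm6* and *Mon1a* NAD, start: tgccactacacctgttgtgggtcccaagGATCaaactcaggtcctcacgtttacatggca
*Rbm6* and *Mon1a* NAD, end: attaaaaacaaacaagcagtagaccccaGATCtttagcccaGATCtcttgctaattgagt
*Ankrd11* NAD, start: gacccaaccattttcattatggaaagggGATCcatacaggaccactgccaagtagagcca
*Ankrd11* NAD, end: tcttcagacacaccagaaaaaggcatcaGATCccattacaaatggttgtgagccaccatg

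The longest distal ESC NADs lay on chromosomes 17, 13 and 1. The longest, chr17:92500148-94800058, spanned 2299.9 kb up to 0.187 Mb from the end of the assembly, with a score of 0.0257, and held only *Adcyap1*, which encodes the neuropeptide PACAP, and *Mettl4*. NPC NADs covered 47.9% of it. The next, chr13:108101086-110299703, spanned 2.20 Mb with 6 protein-coding genes, among them the DNA repair gene *Ercc8* and the phosphodiesterase gene *Pde4d*, scored 0.0356 and was covered to 45.4%. The NAD at chr1:162301179-164399705 spanned 2098.5 kb with 27 protein-coding genes, among them *Dnm3*, *Vamp4* and *Myoc*, scored 0.0260 and was covered to 28.6%. These long NADs did not carry high scores: they stood at positions 879, 511 and 858 among the 1769 scores of the list.

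The highest ESC scores belonged to short NADs that recurred in NPCs. The NAD over *Rbm6*, a gene for an RNA-binding protein, and *Mon1a* spanned 101.6 kb with a score of 0.141, rank 5 of the list. It was followed by chr8:107298971-107399648, with *Nfat5*, a transcription factor of the osmotic stress response, and the body of *Nqo1* (score 0.107), and by chr13:111399955-111500133, with *Gpbp1* (score 0.106). NPC NADs covered 98.5%, 100% and 100% of them. *Rbm6* was at 1.25, 1.15 and 1.10 RPKM in ESCs and 1.31, 1.40 and 1.25 RPKM in NPCs, and *Gpbp1* at 2.84, 2.52 and 2.61 RPKM in ESCs and 2.46, 2.48 and 2.35 RPKM in NPCs. Neither gene passed the test between the cell types (adjusted p = 0.131 and 0.267 in limma). *Nfat5*, whose start lies outside the ESC NAD, was at 1.06, 0.924 and 0.260 RPKM in ESCs and 3.37, 3.14 and 3.24 RPKM in NPCs, and rose (log2 change 1.32, adjusted p = 0.000796), while *Nqo1* fell, as described below.

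The longest ESC NADs without any NPC overlap held few genes. The longest was chr14:99599965-101099905, 1499.9 kb over *Klf12*, a transcriptional repressor, with a score of 0.0294. The next was chr15:91799420-93100088, 1.30 Mb over *Lrrk2*, a kinase gene mutated in Parkinson disease, *Smgc*, the neuronal adhesion gene *Cntn1* and *Pdzrn4*, with a score of 0.0517. The last of them, chr8:118299940-118999499, lay within *Cdh13*, a cadherin anchored by a lipid, with a score of 0.0408. *Cntn1* was at 0.000101, 0.000102 and 0 RPKM in ESCs and 0.0453, 0.0327 and 0.0348 RPKM in NPCs. *Klf12* was at 0.0123, 0.0105 and 0.00330 RPKM in ESCs and 0.0205, 0.0146 and 0.0182 RPKM in NPCs. Both genes stayed far below the 1 RPKM needed for the test in all 6 samples, with NPC values above all ESC values.

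In NPCs the longest and the highest-scoring distal NADs all lay on chromosome 8. The longest was chr8:106299897-108800017, 2.50 Mb with 25 protein-coding genes, among them the cadherin genes *Cdh1* and *Cdh3*, with a score of 0.0864 and 4.03% covered in ESCs. The NAD chr8:126800417-129300174, also 2.50 Mb, with the axon guidance receptor gene *Nrp1* and the integrin gene *Itgb1*, scored 0.133, ended 0.101 Mb from the end of the assembly, next to the undetermined bases, and was covered to 36.0%. The third, chr8:111799709-113500438, spanned 1.70 Mb with a score of 0.0686. The highest score of the whole NPC list, 0.233, was that of chr8:122899903-123100036 over *Ankrd11*, a chromatin regulator gene, and *Spg7*, a mitochondrial protease gene. *Ankrd11* was at 3.04, 2.89 and 0.991 RPKM in ESCs and 3.16, 3.44 and 3.34 RPKM in NPCs, where ESC replicate 3 alone was low (log2 change 0.45, adjusted p = 0.176, and 0.12 with adjusted p = 0.0324 without that sample). *Spg7* was at 1.89, 1.85 and 2.55 RPKM in ESCs and 2.02, 2.13 and 2.08 RPKM in NPCs, so the groups overlapped through ESC replicate 3 (adjusted p = 0.987, and log2 change 0.10 with adjusted p = 0.0282 without it).

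The longest NPC NAD without ESC overlap was chr8:105399100-106200417, 0.801 Mb with 37 protein-coding genes and a score of 0.141. Outside chromosome 8 it was chr14:116999693-117600434, 0.601 Mb over *Gpc6*, a heparan sulfate proteoglycan gene, with a score of 0.0503. *Gpc6* was at 0.00207, 0.00257 and 0.00176 RPKM in ESCs and 0.108, 0.0943 and 0.0955 RPKM in NPCs. The NAD chr8:104799515-105300446, 0.501 Mb with 19 protein-coding genes, held the *Ces2* cluster of carboxylesterase genes, of which *Ces2c* was listed at 0 RPKM in all samples and *Ces2g* was at 0.0188, 0.0114 and 0 RPKM in ESCs and 0.102, 0.113 and 0.0515 RPKM in NPCs.

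The last NAD of a chromosome often lay close to its end in both cell types. On chromosome 3 the ESC NAD chr3:158999419-159900943 and the NPC NAD chr3:159000387-159900943 shared their distal border over *Depdc1a*, *Rpe65* and *Wls*. *Wls*, whose product carries Wnt proteins to the cell surface, was at 0.146, 0.140 and 0.143 RPKM in ESCs and 2.08, 1.86 and 1.88 RPKM in NPCs (log2 change 1.36, adjusted p = 6.06e-07 in limma). It lay in a NAD of both cell types. It reached the 1 RPKM needed for the test through its NPC values alone, so its direction was set by that filter. On chromosome 13 the last NADs, chr13:118999945-119493074 in ESCs and chr13:118101513-119493074 in NPCs, again shared the distal border, and the NPC NAD extended further inwards over *Mrps30* and *Fgf10*, whose starts lay in a separate NAD in ESCs (chr13:118199872-118700685). On chromosome 10 the last ESC NAD, chr10:129499197-130400237, held 39 protein-coding genes, led by olfactory receptor genes. Chromosomes 2, 4, 7 and 11 differed, with the last ESC NAD at 0.213, 6.11, 2.64 and 0.783 Mb and the last NPC NAD at 4.01, 7.21, 2.14 and 10.6 Mb from the end. The last ESC NAD of chromosome 7, chr7:142701498-142799571, overlapped only part of the insulin gene *Ins2*, annotated at chr7:142678656-142743381 on the minus strand. The annotated start of *Ins2* lay inside this NAD and its other end outside. *Ins2* was listed at 0 RPKM in all 6 samples.

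Genes were sparser in distal NADs than in the distal sequence outside them. In ESCs, the distal NADs held 8.01 ± 3.83 genes of the RNAseq tables per Mb by transcription start, against 11.6 ± 5.23 outside, lower on 13 of 15 chromosomes (adjusted p = 0.00952). In NPCs it was 8.88 ± 4.84 against 11.2 ± 4.97 per Mb, lower on 12 of 15 (adjusted p = 0.0409). When genes that only overlap a NAD were counted as inside, the differences were -1.49 and -0.0469 per Mb and neither passed (adjusted p = 0.184 and 0.964). Of the ESC members 35, and of the NPC members 32, held no protein-coding gene.

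Genes in distal NADs were not shown to be expressed at a lower level than other distal genes. In ESCs the mean of log2(RPKM + 1) per chromosome was 0.85 ± 0.29 inside distal NADs and 0.99 ± 0.22 outside, a difference of -0.14 (adjusted p = 0.244, and -0.11 with adjusted p = 0.380 without ESC replicate 3). In NPCs it was 1.08 ± 0.41 inside and 1.01 ± 0.21 outside (adjusted p = 0.517). The transcription start of 894 genes lay in a member: 250 in a NAD of both cell types, 371 in an ESC NAD only and 273 in an NPC NAD only, while 3756 distal genes lay in no NAD. Genes of ESC-only NADs had a median of 0.0863 RPKM in ESCs and 0.101 RPKM in NPCs. Genes in NADs of both cell types had medians of 0.511 and 0.734 RPKM, genes of NPC-only NADs 0.473 and 0.497 RPKM, and distal genes outside NADs 0.188 and 0.412 RPKM. The share of genes below 1 RPKM in ESCs was 73.3% in ESC-only NADs, 58.8% in NADs of both, 59.3% in NPC-only NADs and 65.4% outside. The NPC-only values rest on chromosome 8, which held 174 of these 273 genes, with medians of 0.836 and 1.09 RPKM. On the other chromosomes the medians of NPC-only genes were 0.00437 and 0.0506 RPKM, the lowest of the classes, and 70.7% of the genes were below 1 RPKM in ESCs.

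In NPCs, ESC marker genes were low and endoderm genes were present beside the neural ones. All 8 ESC markers were lower in NPCs. Among them *Pou5f1* was at 129.96, 135.6 and 202 RPKM in ESCs and 0.0558, 0.0386 and 0.0651 RPKM in NPCs, and *Nanog*, which lies in a distal segment outside NADs, at 100.7, 98.9 and 94.8 RPKM against 0.0696, 0.0667 and 0.0260 RPKM. Of 7 NPC markers 4 were higher in NPCs (*Pax6*, *Nes*, *Sox1* and *Hes5*), *Vim* had no call (adjusted p = 0.204, and log2 change 0.32 with adjusted p = 0.00207 without ESC replicate 3) and *Fabp7* and *Ncam1* were too low to test. *Pax6*, a defining factor of neural progenitors, was at 0.0134, 0.0167 and 0.00457 RPKM in ESCs and 1.55, 1.42 and 1.67 RPKM in NPCs. Of 5 endoderm markers 4 were higher in NPCs (*Gata6*, *Gata4*, *Foxa2* and *Sox17*) and *Afp* was not tested. They summed to 0.0977, 0.115 and 0.0834 RPKM in ESCs and 14.6, 16.0 and 15.5 RPKM in NPCs, led by *Gata6* with 6.30, 6.93 and 6.82 RPKM in NPCs, and *Afp* was listed at 0 in all ESC samples. Of 5 neuron markers 2 were lower in NPCs and 3 not tested, with sums of 11.1, 12.2 and 14.5 RPKM in ESCs and 6.86, 5.54 and 6.62 RPKM in NPCs, led by *Tubb3*. The lower ones were *Tubb3* and *Stmn2*, while all 3 that were too low to test had higher values in every NPC sample: *Dcx* with 0 in all ESC samples and 1.05, 0.821 and 0.874 RPKM in NPCs, *Elavl3* with 0.0262, 0.0216 and 0.0272 against 0.866, 0.735 and 0.877 RPKM, and *Map2* with 0.0155, 0.0170 and 0.00754 against 0.150, 0.137 and 0.152 RPKM. Of 3 neural crest markers *Foxd3* was lower and 2 were not tested (*Tfap2a* and *Sox10*, the latter at 0.00920, 0 and 0.00678 RPKM in ESCs and 0.0693, 0.0881 and 0.0970 RPKM in NPCs), with sums of 8.27, 8.77 and 7.62 RPKM in ESCs and 1.05, 1.01 and 0.991 RPKM in NPCs. None of 4 mesoderm markers was tested, and their sums were 1.16, 1.17 and 1.10 RPKM in ESCs and 0.827, 0.842 and 0.773 RPKM in NPCs. These sums join opposite values, with *T* at 0.964, 1.04 and 0.869 RPKM in ESCs and 0.0164, 0.00909 and 0.0115 RPKM in NPCs, and *Tbx6* at 0.173, 0.124 and 0.135 RPKM against 0.765, 0.801 and 0.721 RPKM. Markers below 1 RPKM in every sample of a cell type were tested through the other cell type alone, so the filter set the direction of their calls. This holds for the 4 endoderm markers called and for *Pax6*, *Sox1* and *Hes5*. It also holds for *Stmn2*, *Foxd3* and the ESC markers other than *Klf4* and *Sox2*. The part of endoderm cells in the gene changes that follow was not tested. These are bulk samples, in which fewer cells of a type and less RNA per cell cannot be told apart.

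Genes in distal NADs changed between ESCs and NPCs about as often as all genes. Of the 894 genes 365 reached 1 RPKM in at least 3 of the 6 samples and were tested, and 126 (34.5%) were higher and 122 (33.4%) lower in NPCs at an adjusted p under 0.05 in limma. Over all genes 7815 were tested, of which 2890 were higher and 2597 lower, or 37.0% and 33.2%. Without ESC replicate 3 the counts were 158 higher and 162 lower in distal NADs and 43.9% and 44.0% over all genes. The median log2 change was 0.07 in distal NADs and 0.02 over all genes. RPKM is scaled by the reads of each sample alone, and no read total per sample is in the tables or labels, so the depth behind a single value cannot be given.

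By class, 37 of 113 tested genes in NADs of both cell types were higher and 29 lower (32.7% and 25.7%), and in ESC-only NADs 50 of 125 were higher and 35 lower (40.0% and 28.0%). In NPC-only NADs 39 of 127 were higher and 58 lower (30.7% and 45.7%), with a median log2 change of -0.26. Distal genes outside NADs had 566 of 1567 higher and 546 lower (36.1% and 34.8%). The surplus of lower genes in NPC-only NADs sat on chromosome 8: there 27 of 96 were higher and 48 lower (28.1% and 50.0%), against 12 of 31 and 10 of 31 on the other chromosomes (38.7% and 32.3%). Distal genes of chromosome 8 outside NADs had 23 of 56 higher and 20 lower. Without ESC replicate 3 the counts were 55 higher and 44 lower in NADs of both, 58 and 47 in ESC-only NADs, 45 and 71 in NPC-only NADs, and 677 and 701 outside NADs. These shares were not tested against each other.

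Genes are named below by the size of their change in log2(RPKM + 1), a scale that shrinks changes of genes with low values, so both the order and the size of the changes hold for this scale only. With 0.1 added in place of 1, the change was 4.74 for *Mrc2*, 5.67 for *Sox18*, 6.19 for *Hsd11b2* and -4.51 for *Cth*, but 2.79 for *Atxn1l* and 1.62 for *Itgb1*. Genes below 1 RPKM in every sample of a cell type passed the filter through the other cell type alone. This sets their direction and places all values of 1 cell type above those of the other. Among genes in NADs of both cell types, the largest rises on this scale were those of *Atxn1l*, *Gdf11*, *Mrc2* and *Itgb1*. *Atxn1l*, which encodes a partner of the repressor Capicua, was at 2.00, 2.23 and 0.751 RPKM in ESCs and 11.3, 10.8 and 10.9 RPKM in NPCs (log2 change 2.23, SE 0.23, adjusted p = 0.000184). *Gdf11*, a ligand of the TGF-β family that patterns the trunk, was at 0.199, 0.173 and 0.0931 RPKM in ESCs and 4.01, 3.62 and 3.94 RPKM in NPCs (log2 change 2.07, SE 0.06, adjusted p = 5e-07). *Mrc2*, a collagen uptake receptor, was at 0.00301, 0.00355 and 0.00778 RPKM in ESCs and 2.66, 2.79 and 2.67 RPKM in NPCs (log2 change 1.88, SE 0.04, adjusted p = 1.86e-07). For all of them every NPC value lay above every ESC value. For *Gdf11* and *Mrc2*, which were below 1 RPKM in every ESC sample, this was set by the filter. *Itgb1*, the shared β subunit of many integrins, was at 3.57, 3.29 and 2.70 RPKM in ESCs and 10.1, 9.84 and 9.89 RPKM in NPCs (log2 change 1.39, SE 0.10, adjusted p = 2.84e-05). It lies in the last NAD of chromosome 8 in both lists, with a score of 0.0252 in ESCs and 0.133 in NPCs.

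The largest falls in the same class were those of *Cth*, *Zfp990*, *Eif2s2* and *Zfp985*. *Cth*, the enzyme that makes cysteine from cystathionine, was at 6.85, 6.61 and 7.04 RPKM in ESCs and 0.209, 0.201 and 0.202 RPKM in NPCs (log2 change -2.70, SE 0.06, adjusted p = 1.97e-07). *Eif2s2*, the β subunit of translation initiation factor eIF2, was at 42.4, 39.5 and 56.2 RPKM in ESCs and 7.99, 8.50 and 8.63 RPKM in NPCs (log2 change -2.31, SE 0.15, adjusted p = 1.62e-05). The zinc finger gene *Zfp990* was at 15.4, 12.8 and 11.9995 RPKM in ESCs and 1.63, 1.88 and 1.66 RPKM in NPCs (log2 change -2.40, SE 0.11, adjusted p = 3.14e-06). Its neighbour *Zfp985* was at 3.67, 3.18 and 4.04 RPKM against 0.118, 0.102 and 0.117 RPKM (log2 change -2.05, SE 0.08, adjusted p = 1.17e-06). In each of them the groups were well apart. For *Cth* and *Zfp985*, which were below 1 RPKM in every NPC sample, the filter set the direction. *Cth*, *Zfp990*, *Eif2s2* and *Zfp985* were NAD on chromosomes 3, 4, 2 and 4 before and after differentiation.

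In NADs of ESCs only, the transcription factor gene *Sox18*, known from endothelium, rose most. It was at 0.0651, 0.0329 and 0.0540 RPKM in ESCs and 7.04, 8.34 and 7.36 RPKM in NPCs (log2 change 3.03, SE 0.08, adjusted p = 2.57e-07), and its ESC NAD, the last of chromosome 2, had a score of 0.0142. *Limd2*, a LIM domain gene, was at 3.90, 4.83 and 7.44 RPKM in ESCs and 24.9, 24.3 and 23.0 RPKM in NPCs (log2 change 2.01, SE 0.20, adjusted p = 0.000149). *Slc38a4*, an amino acid transporter gene, was at 0.352, 0.318 and 0.180 RPKM in ESCs and 3.06, 3.21 and 3.40 RPKM in NPCs (log2 change 1.72, SE 0.07, adjusted p = 1.8e-06). *Itga5*, the α subunit of the fibronectin receptor, was at 0.806, 0.764 and 0.617 RPKM in ESCs and 4.52, 4.54 and 4.23 RPKM in NPCs (log2 change 1.65, SE 0.07, adjusted p = 2.34e-06). All of these genes were outside NADs in NPCs, where every sample was above every ESC sample. For *Sox18*, *Slc38a4* and *Itga5*, which were below 1 RPKM in every ESC sample, this separation was set by the filter.

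Genes of ESC-only NADs also fell. *Zfp979* was at 5.26, 4.38 and 6.37 RPKM in ESCs and 0.135, 0.145 and 0.141 RPKM in NPCs (log2 change -2.46, SE 0.12, adjusted p = 3.5e-06), and *Zfp988* at 2.63, 2.20 and 2.93 RPKM against 0.0615, 0.0601 and 0.0706 RPKM (log2 change -1.75, SE 0.08, adjusted p = 2.76e-06). Both share the ESC NAD chr4:146897481-147800226 with *Zfp985*. *Timm8a2*, related to a chaperone of mitochondrial import, was at 2.63, 2.60 and 3.68 RPKM in ESCs and 0, 0.0196 and 0 RPKM in NPCs (log2 change -1.97, SE 0.11, adjusted p = 6.69e-06). *Gm14409*, on chromosome 2, was at 3.30, 2.66 and 1.68 RPKM in ESCs and 0.0278, 0.0616 and 0.0130 RPKM in NPCs (log2 change -1.75, SE 0.16, adjusted p = 0.000110). The genes named in this class were picked as its largest rises and largest falls, so finding both directions among them was set by that choice. Every ESC value of the genes that fell lay above every NPC value. This was set by the filter, since all of them were below 1 RPKM in every NPC sample. How reads from near-identical copies or from overlapping genes on opposite strands were assigned is not stated, so values of these zinc finger genes and of *Gm14409* and *Timm8a2* are uncertain.

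In NADs of NPCs only, the named genes lay on chromosome 8 with the exception of *Gm14226* on chromosome 2. *Hsd11b2*, the enzyme that inactivates glucocorticoids, was at 0.0337, 0.00567 and 0 RPKM in ESCs and 9.25, 8.12 and 6.98 RPKM in NPCs (log2 change 3.16, SE 0.10, adjusted p = 6.16e-07). The NPC NAD around it scored 0.141. *Cmtm3*, a gene for a MARVEL domain membrane protein, was at 0.654, 0.685 and 0.798 RPKM in ESCs and 9.73, 9.31 and 8.03 RPKM in NPCs (log2 change 2.55, SE 0.09, adjusted p = 1.04e-06). *Egln1*, the oxygen-dependent prolyl hydroxylase that marks HIF for degradation, was at 0.412, 0.411 and 0.420 RPKM in ESCs and 5.42, 4.96 and 5.36 RPKM in NPCs (log2 change 2.14, SE 0.06, adjusted p = 4.03e-07). These genes lay in NADs in NPCs and not in ESCs. All were below 1 RPKM in every ESC sample, so their direction was set by the filter. *Gm14226* was listed at 0 in all ESC samples and at 3.48, 3.64 and 4.02 RPKM in NPCs (adjusted p = 2.57e-07).

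The largest falls in this class included the epithelial cadherin gene *Cdh1*, which was at 13.3, 13.9 and 7.93 RPKM in ESCs and 0.477, 0.423 and 0.428 RPKM in NPCs (log2 change -3.11, SE 0.20, adjusted p = 1.67e-05). *Nqo1*, a quinone reductase gene, was at 7.00, 7.04 and 7.52 RPKM in ESCs and 0.622, 0.644 and 0.533 RPKM in NPCs (log2 change -2.36, SE 0.07, adjusted p = 4.62e-07). Its transcription start and the sequence next to it were outside NADs in ESCs, where the short NAD over *Nfat5* covers most of its body. *Aars*, the alanyl-tRNA synthetase gene, was at 31.6, 33.0 and 29.6 RPKM in ESCs and 6.12, 6.57 and 6.86 RPKM in NPCs (log2 change -2.11, SE 0.09, adjusted p = 2.46e-06). *D230025D16Rik* was at 6.75, 6.92 and 4.28 RPKM in ESCs and 1.23, 1.15 and 1.24 RPKM in NPCs (log2 change -1.64, SE 0.16, adjusted p = 0.000151). *Tubb3*, a tubulin gene of neurons, also lay in an NPC-only NAD of chromosome 8 and was at 6.42, 7.57 and 7.86 RPKM in ESCs and 4.47, 3.56 and 4.41 RPKM in NPCs (log2 change -0.69, SE 0.11, adjusted p = 0.00185). In each of these genes all ESC values exceeded all NPC values. For *Cdh1* and *Nqo1*, which were below 1 RPKM in every NPC sample, this was set by the filter. Rises and falls were again picked separately, so finding both in this class was set by that choice. All 24 genes picked for their rise or fall in these 3 classes were called in each of the 11 settings run. They were picked among called genes for the size of their change, so this is no test of stability.

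Gene families were unevenly placed, and no test was made of their shares. Neighbouring genes of a cluster can fall in or out of a NAD together, so genes are not independent units in these counts. Of 4653 genes that lie in the distal segments or in a member, 894 (19.2%) had their start in a member. For olfactory receptor genes, which serve smell, it was 53 of 105, with 42 in ESC NADs, 15 in NPC NADs and 4 in both. Most sat in a cluster on chromosome 10, where 30 genes between 129521792 and 130214403 were NAD in ESCs only and 12 between 128989431 and 129187419 in NPCs only. None of the 53 was tested and 42 were listed at 0 in all samples. The one with the highest mean level, *Olfr814*, was at 0.459, 0.449 and 0.461 RPKM in ESCs and 0, 0 and 0.00739 RPKM in NPCs, high in every ESC sample for this family and near 0 in NPCs. Vomeronasal receptor genes, for pheromones, had 9 of 16 in a member, and taste receptor genes 6 of 27, all 6 at 0 RPKM.

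Zinc finger genes (*Zfp*), many of them DNA-binding repressors, had 32 of 82 distal genes in a member, with 25 in ESC NADs, 15 in NPC NADs and 8 in both. Of the 16 tested, 4 were higher and 10 lower in NPCs, where 37.0% and 33.2% of all tested genes were. On chromosome 4, 12 genes between 145670685 and 147702553 were NAD in ESCs only and 3 in both. The members of this family with the highest mean level that rose were *Zfp445*, at 8.30, 7.61 and 3.02 RPKM in ESCs and 15.6, 15.5 and 14.8 RPKM in NPCs (adjusted p = 0.0116), and *Zfp512b*, at 6.04, 5.82 and 2.62 RPKM against 12.3, 12.7 and 11.5 RPKM (adjusted p = 0.00526). In both genes ESC replicate 3 was the lowest, and without it the log2 changes were 0.87 and 0.93 in place of 1.25 and 1.24. With samples scaled to the same median ratio the changes were 1.22 and 1.21, so direction held.

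Of the keratin genes 0 of 82 were in a member. The counts were also 0 of 9 for Prame, 0 of 9 for homeobox and 0 of 6 for glutamate or GABA receptor genes, groups too small to set against the share of 19.2%. Killer cell lectin-like receptor genes had 2 of 25 in a member and the interferon-inducible 200 family 2 of 13, among them the DNA sensor gene *Aim2*, at 0.832, 0.742 and 0.663 RPKM in ESCs and 0.0743, 0.0825 and 0.0893 RPKM in NPCs. Of the channel genes 5 of 38 were in a member, and of these only the potassium channel gene *Kcnj2* was tested, at 0.00276, 0.00556 and 0.00610 RPKM in ESCs and 1.29, 1.06 and 1.03 RPKM in NPCs (log2 change 1.08, adjusted p = 2.96e-06). It passed the filter through its NPC values alone, so its direction was set by the filter. Guidance and adhesion genes had 7 of 25 in a member. The only one tested, *Cdh1*, fell, as given above. Among the others the netrin receptor gene *Unc5c*, NAD in both cell types, was at 0, 0.000321 and 0 RPKM in ESCs and 0.798, 0.709 and 0.687 RPKM in NPCs, higher in every NPC sample but below the level tested.

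Cytoplasmic ribosomal protein genes had 2 of 21 in a member, both on chromosome 7 in NADs of both cell types. *Rps13* was at 207, 214.7 and 468 RPKM in ESCs and 136.8, 147 and 154.5 RPKM in NPCs (log2 change -0.91, adjusted p = 0.0448). *Rps15a* was at 52.1, 49.6 and 121.8 RPKM in ESCs and 42.7, 41.0 and 40.8 RPKM in NPCs (log2 change -0.70, adjusted p = 0.109). In both, ESC replicate 3 was more than any other sample, and without it the log2 changes were -0.53 and -0.29 (adjusted p = 0.000115 and 0.000906).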

How the data were processed

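Reads of Nucleolar-DamID were aligned by the authors to mm10 (GRCm38) with Bowtie2 2.3.4.3 (version per the submitters' processing notes), assigned to GATC fragments and normalized to H2B-Dam with damidseq_pipeline at 100 kb resolution, peaks were called with find_peaks, and peaks common to both replicates were deposited with 1 score each. For RNAseq the authors used SortMeRNA against rRNA reads, then Trimmomatic and STAR, and deposited RPKM per gene in 1 table per cell type. Annotation and strand use are not stated, and read numbers only as a range for the assay. ChIPseq samples were not used here. Deposited starts count from 0 and are printed 1 higher.

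Chromosome lengths and bases came from GRCm38 and gene positions from GENCODE M21 or else from RefSeq, so that 21699 of 21869 symbols had a position. Of 153 symbols on more than 1 line, 40 with differing values were left out. Coverage is the percent of bases in NADs. A gene belongs to a NAD when its transcription start lies in it. Chromosome comparisons used all 32768 sign combinations and Benjamini-Hochberg adjustment over 20 tests. Expression was compared on log2(RPKM + 1), using lmFit and trended eBayes of limma 3.58.1 under R 4.3.3, for the 7815 genes with at least 1 RPKM in at least 3 of the 6 samples, with Benjamini-Hochberg adjustment and a threshold of 0.05. Other steps used Python 3.11.15, numpy 2.4.6, pandas 2.3.3 and scipy 1.17.1. In made-up data with 200 changed genes limma found 170 of them with 6 false calls, and without any shift the chromosome test gave p under 0.05 in a share of 0.054 of runs.

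The NADs named were, per cell type, the 3 longest, the 3 of highest score, the last of a chromosome, those nearest to 80% on either side and the 3 longest without overlap. The genes named were, per class, the 4 largest rises and 4 largest falls among called genes, up to 4 genes per family by mean RPKM, up to 5 genes of a named NAD, and cell type markers. Members and lists were chosen with earlier results of these data known.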

Additional observations from a re-analysis of the deposited data

How the results depend on the processing

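Of 90 alternatives for the 20 chromosome comparisons, 65 kept direction and side of the threshold. Leaving out undetermined bases or chromosome 8, merging NADs up to 100 kb apart, a pseudocount of 0.1, counting protein-coding genes and counting shared NADs in place of bases changed no call, except that NPC minus ESC coverage of the distal segment passed without chromosome 8 (-8.48 points). That exception followed from leaving out the only chromosome where NPC coverage was higher.

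With the last 10% of the length, NPC minus ESC coverage passed (-7.43 points), as did GATC density (0.0928 and 0.139 per kb in ESCs and NPCs). The score differences (0.00292 and 0.00336) and gene density (-1.86 and -0.876 per Mb) no longer passed, and differences that had not passed changed sign for length (20.1 and 6.52 kb) and NPC expression (-0.0974 over 14 chromosomes). With NADs at or above the median score, ESC coverage (-3.08 points), the scores (0.000686 and 0.00411), the shared ESC bases (-14.6 points) and NPC gene density (-1.32 per Mb) no longer passed, and ESC GATC density (-0.0171 per kb) and ESC expression (0.0122) turned. Against the middle of the chromosome (20% to 80%), the NPC score difference no longer passed (0.00553) and ESC length did (-76.7 kb). With means weighted by length the scores no longer passed (0.00522 and 0.00692). When any overlap placed a gene in a NAD, gene density no longer passed (-1.49 and -0.0469 per Mb) and NPC expression turned (-0.0172). The cause was not tested.

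In limma a pseudocount of 0.1 kept the calls of the genes picked for their rise or fall per class, the only named genes followed through the settings. It moved the size of the log2 change of genes with low values, as for *Mrc2* from 1.88 to 4.74. Without a filter, 7234 genes were higher and 4198 lower among 18320, so that 63.3% of calls were higher, against 52.7%. Leaving out each sample in turn gave 2514 to 3432 higher and 2086 to 3435 lower genes, and 104 to 158 higher and 95 to 162 lower genes in distal NADs, with the highest counts without ESC replicate 3. With the replicate block the counts were 2750 and 2452, and 116 and 115 in distal NADs. The replicate numbers share no more than a number: same-numbered samples correlated at 0.114, -0.0836 and 0.0317 in their deviations from the group means, and not every sample correlated best with its own number. With any overlap, 142 genes in distal NADs were higher and 129 lower. ESC expression without ESC replicate 3 (-0.108) was added after seeing the data and gave the same call. Read numbers are given only as a range for the assay and not per sample, so no limit from depth was computed.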
